A study of Mus musculus with 47 samples.

Results

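Whole cultures of C2C12 iMyoD1 myoblasts differentiated for 120 h with doxycycline (dox) were compared with cultures of the same line differentiated for 48 h with dox, with 3 biological replicates per time point. These 6 libraries are the only ones of the 47 in the series that carry these labels. C2C12 is an immortalized mouse myoblast line that fuses into multinucleated myotubes after serum is withdrawn. Every culture described here carried endogenous MyoD1 and a Halo-tagged MyoD1 transgene under a dox-inducible promoter, integrated by transposition in a selected line. Dox was added when differentiation began, so the 48 h cultures had 48 h of dox and the 120 h cultures 120 h of dox, and the time since induction and the time in differentiation medium cannot be told apart. For comparison, 6 libraries came from the same line at 48 and 120 h with vehicle (3 each, no dox), and 5 from dox cultures at 120 h that had been trypsinized and strained, of which 3 held the retained, myotube-enriched material and 2 the flow-through, myoblast-enriched cells.

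MyoD1 is a basic helix-loop-helix transcription factor that commits cells to the skeletal muscle lineage and induces Myogenin and Mef2 factors, which carry differentiation on. Myoblasts then leave the cell cycle, fuse by means of the membrane proteins Myomaker and Myomixer, and assemble sarcomeres from myosin, actin, troponin, titin and Z-disc proteins. Later steps of maturation add the triads that couple excitation to contraction, replace embryonic by perinatal and adult myosin heavy chains, and raise the creatine kinase and glycogen enzymes that supply contraction with ATP.

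Poly(A)-selected RNA was sequenced, and the deposited values were estimated counts per transcript, which were summed per gene. The total per library lay between 20522001 and 50950674 at 48 h (median 40686437) and between 22370775 and 25394011 at 120 h (median 24530749) with dox. Levels are CPM, the share of a library's counts taken by a gene on the usual per-megaread scale, scaled with TMM factors, and a gene counted as changed at an edgeR adjusted p under 0.05 with a change over 2-fold, that is, over 1 on the log2 scale. A dagger (†) marks a gene whose exons are overlapped by exons of another gene on the opposite strand. Such genes are treated apart further on. Nothing in the labels ties replicates to separate passages, so the p-values measure the spread between these libraries, and fewer cells of a type cannot be told apart from less RNA per cell in cultures sequenced whole.

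The 120 h whole-culture libraries differed from those at 48 h in a way that followed the composition of the transcripts, and this touches all results below. In the quintile of genes with the highest GC content (above 55.9%), the median level at 120 h with dox was between 1.08 and 1.34 log2 units below the 48 h mean in the 3 libraries, and in the quintile with the lowest GC content (30.8 to 44.4%) it was between 0.46 and 0.67 above. The shortest quintile of transcripts lay between 0.67 and 0.72 below and the longest quintile between 0.64 and 0.73 above. The 120 h libraries without dox showed the same trends (0.75 to 1.33 below in the highest quintile of GC content), whereas the 2 myoblast-enriched libraries at 120 h lay 0.18 and 0.19 below. Of the 2827 genes in the highest quintile of GC content, 60.6% were called lower at 120 h and 2.16% higher, against 6.22% lower and 30.8% higher of the 2831 genes in the lowest quintile. Cytosolic ribosomal protein genes, short and highly expressed, took between 6.29 and 7.83% of the counts at 48 h and between 2.65 and 2.90% at 120 h with dox. Of 79 tested, 56 were lower and none higher as counted, with a median log2 change of -1.32. With the correction described below, 21 were lower and none higher, with a median of -0.51. Mitochondrially encoded mRNAs took between 3.37 and 3.84% at 48 h and between 6.02 and 6.90% at 120 h with dox, and 4 of 13 were higher and 2 lower (medians 0.78 and 0.86 corrected). Each comparison was therefore also fitted with offsets that remove a smooth trend on GC content and transcript length from every library, a correction chosen after the data were seen and called the corrected fit here. Whether the trends arose in the cells or in the preparation of the RNA was not tested.

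**Figure D1:**
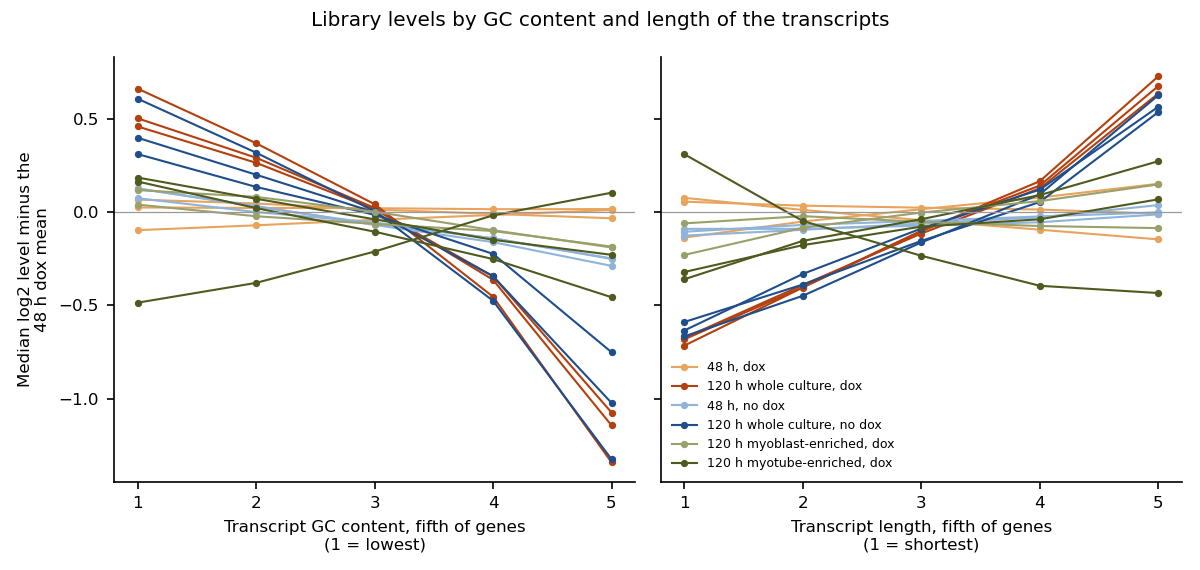
Median log2 level of the genes in each quintile of transcript GC content (left) and transcript length (right), minus the mean of the 48 h dox libraries. Each line is 1 library. The 3 libraries of 120 h whole cultures with dox fell from between 0.46 and 0.67 to between -1.34 and -1.08 with rising GC content, and in the quintile with the highest GC content the 5 strained libraries stayed between -0.46 and 0.11.

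Of 14167 genes tested with dox, 2136 (15.1%) rose and 3016 (21.3%) fell from 48 to 120 h. In the corrected fit, 1428 of 14135 (10.1%) rose and 1329 (9.4%) fell, and 1007 rose (7.11% of 14167) and 1118 fell (7.89%) in both fits. The counts called in each gene list below are to be read beside these shares. Rises made up 41.5% of the calls as counted and 51.8% after correction. A group of 25 genes changed direction, being lower as counted and higher after correction. The median log2 change of all genes was -0.044 as counted and 0.010 after correction. The 48 and 120 h libraries did not overlap for 98.5% of the genes called higher and 99.5% of those called lower as counted. Genes picked for a large change with a small spread are bound to be mostly apart, so these shares are no further support for the calls.

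The regulators of the myogenic programme moved apart. *Myod1* (ENSMUSG00000009471, GRCm38 chromosome 7 from 46376474 to 46379099) stood at 287, 310.4 and 283 CPM at 48 h and at 77.4, 91.7 and 89.97 CPM at 120 h, so that all 120 h libraries lay below all 48 h libraries. Its log2 change was -1.72 (SE 0.0954, edgeR adjusted p = 4.79e-09) as counted and -0.18 (edgeR adjusted p = 0.015) in the corrected fit, where it was not called. Without dox its change was -0.45, and the difference of -1.26 (SE 0.144, edgeR adjusted p = 1.76e-05) was called as counted but not after correction (-0.77). The sources used here do not say whether the Halo-tagged transgene was in the transcript reference, so these counts hold no check of its induction. *Myog*, which encodes Myogenin (GRCm38 chromosome 1 from 134289989 to 134292548), stood at 541, 546 and 643 CPM at 48 h and 354, 378 and 367 CPM at 120 h, a log2 change of -0.61 as counted and 0.17 after correction, neither past the fold threshold. *Mef2c* (GRCm38 chromosome 13 from 83504034 to 83667080), a partner of the myogenic factors that turns on late muscle genes, went from 3.63, 2.93 and 2.32 to 100.1, 99.6 and 92.9 CPM, the largest rise of the list (5.05 as counted, SE 0.139, edgeR adjusted p = 2.62e-11, and 4.103 corrected). *Myf6*, the regulator of the mature fibre, rose from 0.258, 0.0775 and 0.0928 to 0.669, 1.896 and 0.834 CPM, at a level where few counts were behind each value. *Myf5*, the regulator of the undifferentiated myoblast, fell from 20.97, 21.98 and 17.6 to 7.55, 6.72 and 4.81 CPM (-1.63 as counted, -1.92 corrected). *Id3*, an inhibitor of the E-protein partners of MyoD1, had the largest fall of the list, from 57.5, 72.1 and 76.4 to 3.35, 5.65 and 6.33 CPM (-3.71 and -2.68). Of 15 regulators tested, 4 rose and 6 fell, and 3 and 5 did so in both fits.

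Fusion genes did not move as a group. *Mymk*, which encodes Myomaker (GRCm38 chromosome 2 from 27061636 to 27072179), the protein that acts on both fusing membranes, stood at 471, 514 and 451 CPM at 48 h and at 647, 734 and 764 CPM at 120 h, with no overlap. Its log2 change of 0.62 (SE 0.0951) did not pass the fold threshold as counted, and that of the corrected fit, 1.45 (edgeR adjusted p = 3.32e-09), did. *Mymx*, which encodes Myomixer (GRCm38 chromosome 17 from 45600971 to 45602102), a short transcript of 685 bases and 57.8% GC, went from 108, 132 and 122 CPM down to 26.4, 30.1 and 32.4 CPM. That fall of -1.98 on the log2 scale (edgeR adjusted p = 5.33e-09) was -0.15 after correction (edgeR adjusted p = 0.0679). *Jam2*, an adhesion molecule, had the largest rise of the list, from 52.5, 45.5 and 38.8 to 132, 109 and 112 CPM (1.401 as counted, 0.79 corrected and then not called). Of 12 fusion genes tested, 3 rose and 3 fell as counted, and 1 rose and 0 fell in both fits.

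**Figure D2:**
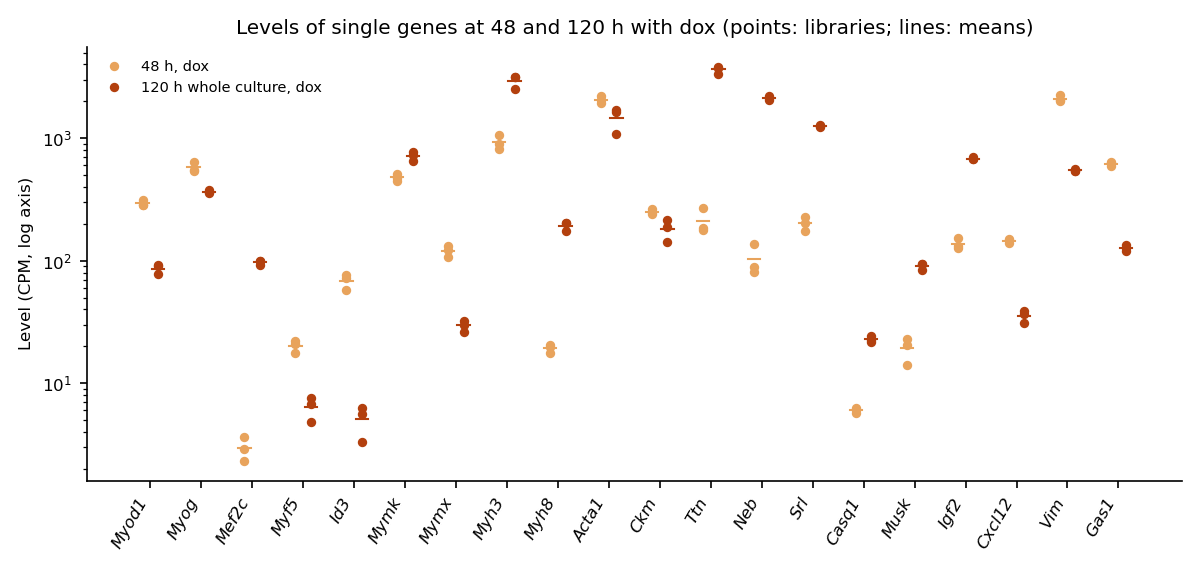
Level of 20 genes in CPM (log axis) in each library at 48 h and 120 h with dox, points are libraries and short lines are means. *Mef2c*, *Myh8*, *Ttn*†, *Neb*† and *Srl* stood higher in all 120 h libraries and *Myod1*, *Myf5*, *Id3*, *Vim* and *Gas1* lower, while *Acta1* and *Ckm*† lay slightly lower as counted.

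Myosin heavy chains, the motors of the thick filament, mostly rose. *Myh3*, the embryonic chain (GRCm38 chromosome 11 from 67078300 to 67102291), stood at 1070.3, 901 and 809.5 CPM at 48 h and 2530.0, 3153 and 3173 CPM at 120 h (1.71, SE 0.123, edgeR adjusted p = 3.86e-08, corrected 1.43). *Myh8*, the perinatal chain (GRCm38 chromosome 11 from 67277124 to 67308634), had the largest rise, from 20.4, 19.9 and 17.6 to 175, 203 and 202 CPM (3.36, SE 0.105, corrected 2.99). Among the adult fast chains, *Myh1*† (type IIx) rose as counted from 51.7, 50.3 and 43.3 to 116, 118 and 134 CPM and *Myh4* (type IIb) from 1.08, 0.892 and 0.371 to 7.99, 8.37 and 7.88 CPM. *Myh2*† (type IIa) went from 1.22, 1.88 and 1.25 to 4.27, 5.23 and 5.57 CPM, a log2 change of 1.81. *Myh7*†, the slow chain, was not called, at 23.3, 19.02 and 18.3 CPM at 48 h and 13.7, 18.1 and 17.4 CPM at 120 h, and *Myh6*, the cardiac chain, fell from 3.91, 2.46 and 2.51 to 0.743, 0.865 and 0.7201 CPM. In all, 5 of 8 chains rose and 1 fell as counted, with a median of 1.55 (1.25 corrected) against -0.044 (0.010) for all genes. These genes are near copies of each other, so reads can be divided between them wrongly, and 4 of the 8, among them *Myh1*† and *Myh2*†, are overlapped by exons on the opposite strand.

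*Myh3* stayed the main heavy chain with dox. Per transcript length, *Myh3* made up 91.1% ± 0.483 (SD, n = 3) of the mRNA of 6 muscle heavy chains at 48 h and 89.4% ± 0.552 (SD, n = 3) at 120 h. *Myh8* went from 1.95% ± 0.145 to 5.99% ± 0.232, *Myh7*† went from 1.96% ± 0.0711 to 0.487% ± 0.0172, and *Myh1*† from 4.81% ± 0.330 to 3.75% ± 0.362 (SD, n = 3 each). Without dox, *Myh3* went from 92.4% ± 0.416 to 61.9% ± 1.28 and *Myh1*† from 4.40% ± 0.181 to 24.4% ± 0.564 (SD, n = 3 each). The rise of *Myh1*† on the log2 scale was 1.38 with dox and 2.59 without, a difference of -1.199 (SE 0.143, edgeR adjusted p = 2.55e-05, corrected -1.23). The change of *Myh3* was 1.71 with dox and -0.46 without, a difference of 2.19 (SE 0.164, edgeR adjusted p = 3.44e-07, corrected 2.23). The 6 chains are close in length and GC content (5908 to 6129 bases, 52.8 to 56.2%).

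**Figure D3:**
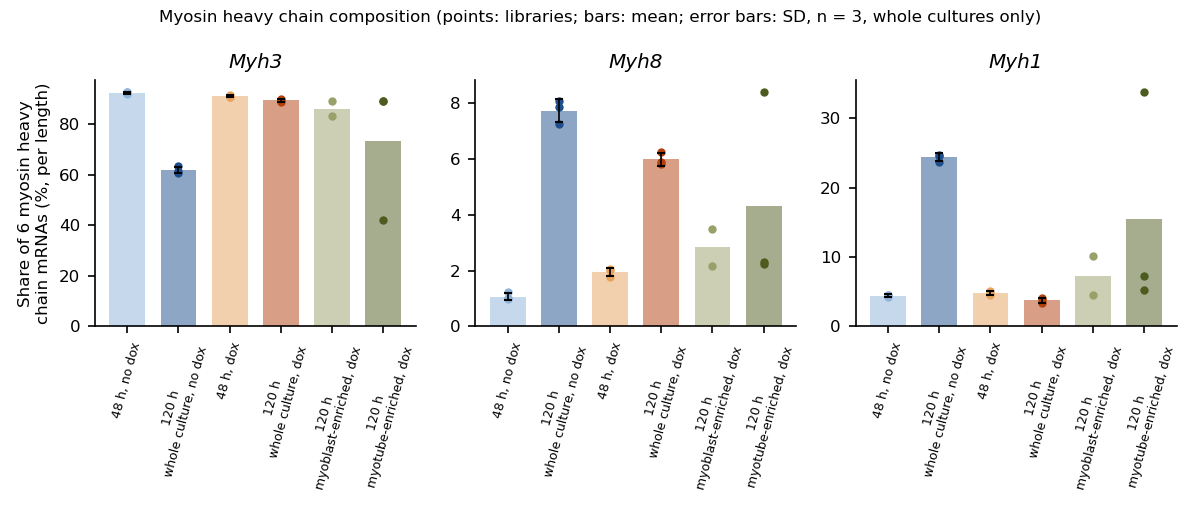
Share of *Myh3*, *Myh8* and *Myh1*† in the mRNA of 6 muscle myosin heavy chains (*Myh1*†, *Myh2*†, *Myh3*, *Myh4*, *Myh7*† and *Myh8*), in percent per transcript length. Bars are group means, points libraries and error bars SD (n = 3, whole cultures only). *Myh1*† reached 24.4% at 120 h without dox and 3.75% with dox, and 1 myotube-enriched library stands apart at 33.8%.

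Myosin light chains also rose, while both striated actins were short of the fold threshold. Of the 7 myosin light chain and striated actin genes tested, 4 rose and none fell as counted, and 5 rose in the corrected fit. *Myl1*, a fast essential light chain, went from 153, 169.8 and 163 to 639, 654 and 684 CPM (2.07, SE 0.0891, corrected 2.57), and *Mylpf*, the fast regulatory light chain, from 722, 783 and 806 to 2148, 2402 and 2289 CPM (1.61, corrected 2.504). *Acta1*, the skeletal actin, was at 2031, 2203 and 1948 CPM at 48 h and 1078, 1694 and 1628 CPM at 120 h, a log2 change of -0.45 as counted and 0.74 after correction. *Actc1*, the cardiac actin, was at 1042, 1045 and 996 CPM at 48 h and 1324, 1416 and 1474 CPM at 120 h (0.49, corrected 0.98). Neither actin passed the fold threshold in either fit, and the sign for *Acta1* depended on the correction.

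Of 15 thin filament genes, 4 rose as counted and 11 after correction, and none fell in either fit. *Neb*† (GRCm38 chromosome 2 from 52136647 to 52378474), which encodes nebulin, the ruler of the thin filament, rose from 138, 89.7 and 81.6 to 2126, 2206 and 2044 CPM (4.41, SE 0.176, edgeR adjusted p = 4.4e-10, corrected 2.92). *Tnnt3*, the fast troponin T, rose from 409, 403 and 456 to 907, 959.7 and 943 CPM (1.19, corrected 1.93). *Tnni2* and *Tnnc1*, troponins I and C, changed by 0.72 and 0.69 as counted and by 2.03 and 1.76 after correction, past the fold threshold only then. *Tpm3*, a tropomyosin, had the lowest value of the list at -0.53, which was not called.

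Of the titin, M-band and myosin-binding genes, 8 of 11 rose in both fits, with medians of 2.37 as counted and 2.14 after correction. *Ttn*† (GRCm38 chromosome 2 from 76703980 to 76982547), the giant spring of the sarcomere, rose from 269, 178 and 183 to 3769.7, 3831 and 3369 CPM (4.16, SE 0.158, corrected 2.68). *Myom2*, an M-band protein, rose from 206, 175 and 152 to 879.8, 962 and 955 CPM and *Mybpc2*, the fast myosin-binding protein C, from 1.03, 1.67 and 1.72 to 11.1, 15.6 and 14.5 CPM. *Obsl1* fell as counted (-1.28, 61.3% GC) and stood at 0.4002 after correction. Among 17 Z-disc genes, 10 rose as counted, all of them also after correction, which called 14. *Csrp3*, a Z-disc sensor of stretch, rose from 17.2, 19.8 and 17.3 to 30.9, 39.4 and 42.7 CPM (1.098, corrected 1.87, and 0.997 without 120 h replicate 3, under the fold threshold), while *Actn3*, the fast alpha-actinin, passed only after correction (0.33 and 1.12). *Ankrd1*, another stretch-responsive Z-disc gene, stood at 143, 151 and 158 CPM at 48 h and 209, 191 and 188 CPM at 120 h and was not called (0.42). *Xirp2*† had no count in the 48 h libraries and stood at 0.892, 1.61 and 1.14 CPM at 120 h, at least 8.29-fold higher by the limit that 3 counts per library allow. *Cryab*†, a small heat shock protein of the Z-disc, had the lowest value of the list (-0.61, corrected 0.51).

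Genes of excitation-contraction coupling, which link the membrane signal to calcium release, rose in 15 of 21 cases as counted and in 11 in both fits. *Srl*, which encodes the calcium store protein sarcalumenin, rose from 228, 202 and 176 to 1247, 1245 and 1278 CPM (2.68, SE 0.106, edgeR adjusted p = 4.28e-10, corrected 2.32). *Ryr1*†, the calcium release channel, rose from 143, 99.9 and 107 to 337, 414 and 362 CPM, *Atp2a1*†, the calcium pump of fast fibres, from 335, 292 and 250.2 to 883, 1011 and 1036 CPM, and *Casq1*†, the calcium buffer of the store, from 6.02, 5.76 and 6.31 to 21.6, 24.5 and 22.7 CPM. *Clcn1*†, the muscle chloride channel, had the largest rise, from 0.609, 0.756 and 0.418 to 6.95, 9.07 and 9.06 CPM (3.79, corrected 3.67). *Jsrp1* fell as counted from 95.9, 103 and 138 to 14.2, 22.7 and 18.2 CPM (64.6% GC) and stood at 0.302 after correction. *Pvalb*, which encodes the calcium buffer parvalbumin of mature fast fibres, stood at 0.398, 0.233 and 0.325 CPM at 48 h and 0.297, 0.124 and 0.606 CPM at 120 h and was too low to be tested.

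At the neuromuscular junction and in the membrane complex the picture was mixed. *Musk*, the receptor kinase that organizes the synapse, rose from 23.1, 20.7 and 14.2 to 93.96, 83.2 and 93.5 CPM (2.25, SE 0.144, corrected 2.08), while *Chrng*, the embryonic receptor subunit, was at 192, 206 and 192 CPM at 48 h and 137, 164 and 171 CPM at 120 h (-0.28) and *Chrna1* at 488, 498 and 492 CPM at 48 h and 710.1, 714 and 738 CPM at 120 h (0.59), neither called. *Rapsn*†, which clusters the receptor, fell as counted (-1.598) and stood at -0.077 after correction. Of 11 junction genes, 3 rose and 0 fell in both fits. Of 12 genes of the dystrophin complex, 7 rose as counted and 4 in both fits. *Dmd*, which encodes dystrophin, had no count at 48 h and stood at 1.004, 2.35 and 2.69 CPM at 120 h, at least 13.8-fold higher. *Dag1*, dystroglycan, went from 833, 683 and 600.1 to 1232, 1346 and 1387 CPM (0.95, not called, but past the fold threshold without 120 h or 48 h replicate 1, at 1.01 and 1.07), and *Sgca* stood at 0.045 as counted and 1.36 after correction.

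Muscle energy enzymes rose in 10 of 19 cases as counted and in 15 after correction, 9 of them in both fits. *Pygm*, muscle glycogen phosphorylase, rose from 84.4, 80.9 and 71.9 to 209, 232 and 232 CPM (1.55, SE 0.0934, corrected 1.97), and *Ckmt2*†, the mitochondrial creatine kinase of muscle, from 0.164, 0.349 and 0.278 to 8.44, 6.59 and 8.34 CPM (4.897, corrected 5.22). *Ckm*†, cytosolic creatine kinase, has a short transcript rich in GC (60.9%, 1235 bases). It stood at 239, 267 and 249 CPM at 48 h and 143, 215 and 189 CPM at 120 h, a log2 change of -0.42 as counted and 1.89 after correction (edgeR adjusted p = 2.25e-10). *Mb*†, myoglobin, stood at 0.059 and 1.23, *Aldoa*†, muscle aldolase, at -0.42 and 0.76, and *Cox6a2*†, the muscle isoform of a cytochrome oxidase subunit, fell as counted (-1.22, corrected -0.24). Of the tested members of this list, 11 are overlapped by exons on the opposite strand.

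**Figure D4:**
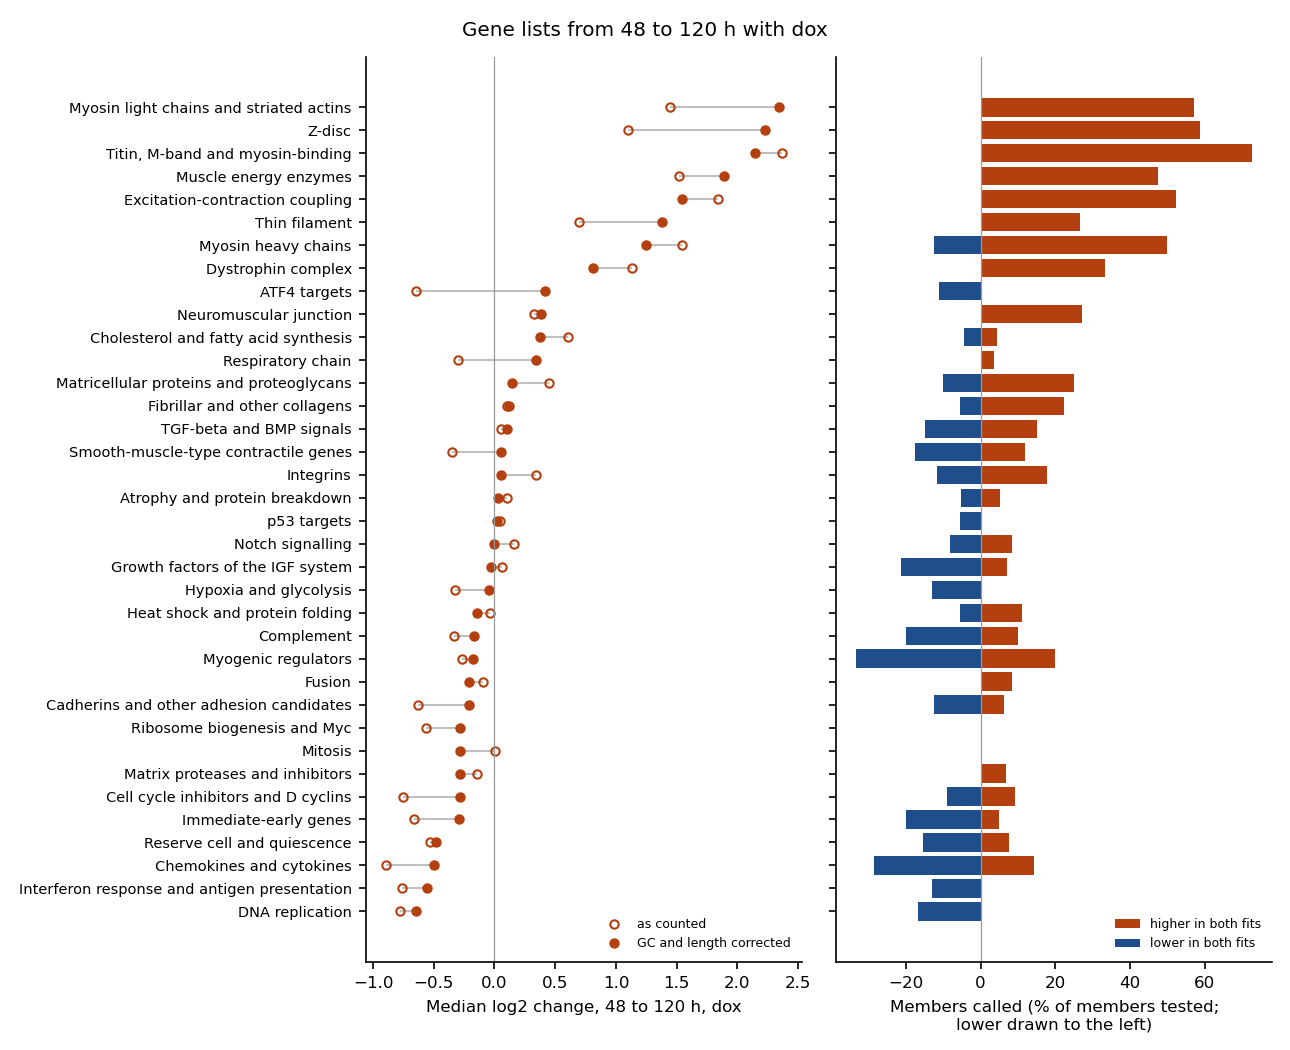
For the 36 gene lists, left: median log2 change from 48 to 120 h with dox as counted (open) and in the corrected fit (filled), right: share of the tested members called higher (right) or lower (left, drawn as negative) in both fits, in percent. The lists of the sarcomere, coupling, energy enzymes and the dystrophin complex have the 8 highest medians in both fits, and ATF4 targets move from -0.65 to 0.41 with the correction.

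Cell cycle genes of mitosis were mostly not called, and some of DNA replication fell. None of the 24 mitosis genes was called in the corrected fit, and 2 rose and 3 fell as counted (medians -0.28 and 0.0056). *Mki67*, the proliferation antigen with a long transcript of 10061 bases, rose as counted from 83.95, 69.4 and 63.1 CPM at 48 h to 179, 148 and 142 CPM at 120 h (1.16) and stood at -0.26 after correction. *Ccnb1*, cyclin B1, stood at 20.9, 21.2 and 20.1 CPM at 48 h and 29.1, 24.6 and 24.7 CPM at 120 h (0.37, corrected 0.097), and *Top2a* at 114, 111 and 101 CPM at 48 h and 169, 144 and 137 CPM at 120 h (0.504, corrected -0.27). *Plk1*, a mitotic kinase, fell as counted (-1.61) and stood at -0.84 after correction. Of 24 replication genes, 8 fell as counted, 5 after correction and 4 in both, and none rose. *Mcm5*, a subunit of the replicative helicase, fell from 45.6, 48.7 and 47.8 to 13.7, 16.9 and 14.3 CPM (-1.62, SE 0.109, corrected -1.66), *Pcna*, the sliding clamp, from 97.4, 111 and 103 to 39.4, 38.4 and 38.1 CPM (-1.38, corrected -1.37), and *Gins2*† from 20.1, 22.7 and 26.3 to 2.38, 3.17 and 2.43 CPM (-3.07, corrected -2.94). *Rrm2* stood at -0.44 and -0.603, not called.

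Regulators of cell cycle exit moved one by one. *Rb1*†, the retinoblastoma gene, rose from 88.7, 74.6 and 61.3 to 316, 267 and 263 CPM (1.95, corrected 1.14), and *Ccnd1*†, cyclin D1, fell from 49.6, 51.4 and 51.4 to 9.998, 9.93 and 8.56 CPM (-2.38, corrected -2.57). In the strained dox libraries, also from 120 h, *Rb1*† stood at 31.0, 133 and 87.5 CPM (myotube-enriched) and 73.6 and 103 CPM (myoblast-enriched), scaled separately. *Cdkn1a*, which encodes the inhibitor p21, was at 549, 590.2 and 577 CPM at 48 h and 692, 671 and 699 CPM at 120 h (0.31, corrected 0.92) and was not called. *Cdkn1c*, which encodes p57, fell as counted (-1.94) and stood at -0.29 after correction. *Pax7*, the marker of satellite and reserve cells, was not called, at 152, 131 and 124 CPM at 48 h and 111, 105 and 112 CPM at 120 h (-0.27, corrected -0.29). *Gas1*, a membrane protein of arrested cells, fell from 622, 634 and 588 to 134, 120.0 and 127 CPM (-2.23, SE 0.0891, corrected -1.101).

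The adhesion list includes *Cdh23*, *Cadm4*, *Itga3*, *Mcam*† and *Cdh15*, which the study singled out from its own RNA-seq, so its counts are not independent evidence of a direction. *Itga3*, an integrin subunit, fell from 206, 193 and 176 to 42.3, 55.6 and 57.6 CPM in both fits (-1.84, SE 0.119, edgeR adjusted p = 1.59e-08, corrected -1.24). *Cadm4*, an immunoglobulin-type adhesion molecule, fell as counted from 40.3, 37.9 and 46.5 to 13.9, 14.3 and 14.7 CPM (-1.49), and with 60% GC it stood at 0.28 after correction. *Cdh15*, M-cadherin, likewise fell as counted from 466, 467 and 460.3 to 113, 148 and 150.2 CPM (-1.72) and stood at -0.26. *Cdh23* stood at 20.5, 18.4 and 17.7 CPM at 48 h and 10.1, 11.2 and 12.1 CPM at 120 h (-0.72, corrected -0.91) and *Mcam*† at 24.4, 21.7 and 22.97 CPM at 48 h and 31.4, 30.5 and 32.8 CPM at 120 h (0.498, corrected 0.71), both short of the fold threshold. *Adgrg1*, an adhesion receptor coupled to G proteins, fell as counted from 212, 211 and 190.5 to 72.3, 84.2 and 88.8 CPM (-1.28, corrected -0.73). *Cdh11* had the largest rise, from 4.66, 4.27 and 3.81 to 37.4, 34.8 and 37.3 CPM (3.13, corrected 2.27). The strained dox libraries from 120 h differed from 48 h by 0.55 for *Cdh11* and by -0.40 for *Itga3*, neither called. Of 16 genes of the adhesion list tested, 1 rose and 6 fell as counted, and 1 rose and 2 fell in both fits. These are few genes, and over all genes 15.1% rose and 21.3% fell as counted, and 7.11% and 7.89% in both fits.

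Among 17 integrin genes, 3 rose and 2 fell in both fits. *Itga1*, a collagen-binding subunit, rose from 0.82005, 0.989 and 0.325 to 9.29, 7.17 and 9.25 CPM (3.53, corrected 1.89), and *Itga7*†, the laminin-binding subunit of muscle, was not called at 452, 445 and 439 CPM at 48 h and 261, 322 and 318 CPM at 120 h. Of the matrix genes, *Fmod*, which encodes fibromodulin, rose from 9.47, 8.899 and 8.82 to 62.1, 61.3 and 71.9 CPM (2.89, corrected 3.096) and *Postn*, periostin, from 15.9, 12.7 and 11.1 to 60.96, 53.9 and 61.5 CPM (2.18, corrected 1.74). *Dcn*, decorin, fell from 40.3, 44.6 and 43.7 to 18.3, 20.6 and 20.05 CPM in both fits (-1.08 and -1.23), as did *Fbln1*, fibulin 1 (-1.93 and -1.24), and *Col18a1*, a basement membrane collagen (-2.52 and -1.34). *Fn1*†, fibronectin, at 2075, 1600.5 and 1528 CPM at 48 h and 2939.6, 2947 and 3259 CPM at 120 h, and *Col3a1*, at 4108, 4071 and 3331 CPM at 48 h and 2514, 2564 and 2676 CPM at 120 h, were not called. *Mmp2*, a gelatinase, fell as counted from 1281, 1269 and 1115 to 436, 474 and 496 CPM (-1.34, corrected -0.901). *Vim*, the intermediate filament of myoblasts, fell from 1999, 2248 and 2058 to 540.1, 543 and 564 CPM in both fits (-1.895, SE 0.09096, corrected -1.42), while *Des*†, its muscle counterpart, stood at 871, 906 and 960.2 CPM at 48 h and 689, 926 and 900.0 CPM at 120 h (-0.0804, corrected 0.57).

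Secreted signals showed a few large changes in the whole cultures. *Igf2*†, an autocrine growth factor of differentiating myoblasts (GRCm38 chromosome 7 from 142650766 to 142666816), rose from 153, 131 and 128 to 699, 674 and 674 CPM (2.36, SE 0.0963, corrected 2.31), while the other ligand, *Igf1*, rose as counted (1.31) and stood at 0.0603 after correction. The binding protein genes *Igfbp5* and *Igfbp6* stood at 3738, 3178 and 2884 CPM at 48 h and 3231, 3100.3 and 3092 CPM at 120 h (-0.014, not called) and at 117, 134 and 153 CPM at 48 h and 6.802, 10.2 and 10.7 CPM at 120 h (-3.82, corrected -1.49), the largest fall of the list. *Fst*, follistatin, an antagonist of myostatin and activins, rose from 25.5, 28.8 and 26.7 to 69.2, 44.9 and 56.8 CPM in both fits (1.12 and 1.396, and 0.96 without 120 h replicate 1, under the fold threshold). *Bmp6*†, a bone morphogenetic protein, rose from 0.937, 0.601 and 1.02 to 7.06, 6.39 and 8.56 CPM (3.19, corrected 4.06), and *Heyl*, a target of Notch, from 19.7, 17.9 and 16.01 to 61.03, 71.4 and 67.3 CPM (1.94, corrected 2.096). *Cxcl12* fell from 139, 151 and 148 to 37.1, 31.3 and 38.8 CPM (-1.99, corrected -2.12) and *Cxcl5* from 16.6, 19.5 and 23.4 to 0.595, 0.412 and 0.455 CPM (-5.28, corrected -5.51), both chemokines, while the chemokine *Cxcl14* rose from 2.51, 1.96 and 1.81 to 13.7, 12.2 and 11.9 CPM (2.62). The strained dox libraries, also from 120 h, differed from 48 h by only -0.13 on the log2 scale for *Cxcl5* and -0.16 for *Igfbp6*. For *Cxcl14* they differed by 1.97 and for *Fst* by 1.04, and none of these was called. No interferon-response gene of 23 tested rose, 11 fell as counted and 3 in both fits. *Tap2*†, a peptide transporter of antigen presentation, had the largest fall (-2.24, corrected -1.19), and *B2m* went from 342, 375 and 380.4 to 233, 193 and 204 CPM, not called (-0.76). Of 20 immediate-early genes, 1 rose and 4 fell in both fits, with *Junb*† lowest, at 265, 286 and 299 CPM at 48 h and 5.69, 7.38 and 6.14 CPM at 120 h (-5.43, corrected -2.87, 62.6% GC).

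The medians of ATF4 targets and of respiratory chain genes changed sign with the correction. So did those of mitosis, smooth-muscle-type contractile genes (-0.35 and 0.057), Notch signalling (0.16 and -0.0031) and the IGF system (0.062 and -0.031). ATF4 targets, the genes of the integrated stress response, had a median of -0.65 as counted and 0.41 after correction. Of 18 tested, 1 was higher and 7 lower as counted, and 0 were higher and 2 lower in both fits. The 2 lower ones were *Slc7a11*, the cystine transporter, at 13.1, 18.3 and 11.3 CPM at 48 h and 3.196, 3.997 and 3.94 CPM at 120 h (-1.903, corrected -3.41), and *Gdf15*, a secreted stress signal, at 3.28, 3.82 and 3.62 CPM at 48 h and 0, 0.0824 and 0.0758 CPM at 120 h. The 120 h libraries held at most 3 counts of *Gdf15* each, so that it was at least 26.6-fold lower. *Atf4* itself stood at 204, 214 and 221 CPM at 48 h and 236, 233 and 231 CPM at 120 h (0.17, corrected 0.78) and was not called. Genes of the respiratory chain and its regulators were mostly not called (2 of 27 higher, 3 lower, medians -0.3002 and 0.34), but *Ppargc1a*, the coactivator of mitochondrial biogenesis, rose from 0.726, 0.504 and 0.278 to 7.95, 5.85 and 6.59 CPM (3.72, corrected 2.805). Of 23 genes of cholesterol and fatty acid synthesis, 7 rose and 3 fell as counted, and 1 of the rises, *Idi1* (92.1, 89.3 and 76.2 CPM at 48 h, 308, 252 and 271 CPM at 120 h), held in both fits. Of 23 hypoxia and glycolysis genes, none rose and 8 fell as counted, 3 in both fits, with *Car9*†, a carbonic anhydrase, lowest (-2.62, corrected -2.12). *Hspb7*, a small heat shock protein of muscle, rose from 11.6, 10.1 and 8.91 to 52.6, 76.6 and 76.6 CPM (2.78, corrected 3.703), and *Hspa1b* fell (-2.41, corrected -1.31). Of 19 atrophy genes, *Fbxo32*†, a muscle ubiquitin ligase, rose as counted from 33.01, 27.9 and 28.8 to 85.01, 85.1 and 82.2 CPM (1.53, corrected 0.49), and *Trim63*, the other classic ligase, was not called (0.105).

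The single genes with the largest changes were chosen among genes free of exons on the opposite strand, at 10 CPM or more in 1 group. Of the 14167 genes tested, 67 have no position in the annotation used here and were counted as free of overlap without a check. Besides *Mef2c*, those that rose included *Ano5*, a membrane repair gene, from 0.398, 0.523 and 0.464 to 15.2, 12.3 and 15.8 CPM (4.99, SE 0.212, corrected 3.71), *Slco5a1* from 0.141, 0.174 and 0.0464 to 16.3, 12.9 and 13.6 CPM (6.71, corrected 5.49) and *Fsd2* from 0.8903, 0.872 and 0.6498 to 20.7, 24.1 and 18.1 CPM (4.699, corrected 4.28). *Greb1* went from 0, 0.0969 and 0 to 13.6, 17.7 and 14.4 CPM and *Zfp871*, a zinc finger gene of 40.1% GC and 10630 bases, from 5.41, 2.89 and 2.27 to 79.1, 77.2 and 77.6 CPM (4.47, corrected 2.81). The strained dox libraries from 120 h differed from 48 h by 0.70 for *Zfp871*, 3.59 for *Slco5a1* and 3.81 for *Mef2c*, none called. *Zbed6* had no count at 48 h and stood at 155, 128 and 129 CPM at 120 h, at least 940.4-fold higher, but it lies in exons of another gene on the same strand, as does *Rsc1a1*, so that their counts are uncertain. *Gm10163*, a processed pseudogene, was at 0 at 48 h and at 80.1, 106 and 15.7 CPM at 120 h, at least 461-fold higher, with a wide spread and reads it may share with its parent gene. The last of the 10 was ENSMUSG00000103888, for which the annotation used here gives no name or position (1 of those 67), at 8.97, 2.77 and 3.85 CPM at 48 h and 447, 446 and 398 CPM at 120 h.

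Most of the genes with the largest falls were RNAs that lack a long poly(A) tail or are very rich in GC. *Rn7sk*, the 7SK RNA, went from 7.52, 34.5 and 25.9 to 0.149, 0.701 and 0 CPM, and *Rn7s1* and *Rn7s2*, both copies of the 7SL RNA, from 3.51, 94.8 and 16.8 and from 12.7, 48.7 and 37.5 CPM to at most 0.112 and 0.536 CPM. *Gm26917*, a noncoding RNA with ribosomal sequence, fell from 483, 731 and 809 to 2.94, 6.35 and 6.48 CPM, and *Gm47283* from 60.6, 69.3 and 79.2 to 0.186, 0.495 and 0.493 CPM. The protein-coding genes *Prr7* (69% GC) and *Fndc10* (62.9% GC) stood at 16.6, 21.3 and 18.4 and 8.997, 12.1 and 11.2 CPM at 48 h and at or under 3 counts in every 120 h library, at least 140.0-fold and 80.3-fold lower. *Gm20458*, which shares exons with another gene on its strand, and the unnamed ENSMUSG00000099597 and ENSMUSG00000090234, also without a position, were at 0 in all 120 h libraries, at least 95.5-fold, 231-fold and 83.4-fold lower. The whole-culture libraries of 48 and 120 h were deposited together under the same list of transcripts. Whether they were counted with the same annotation was not tested beyond that, and the bounds assume that they were. In the strained dox libraries, also from 120 h, *Prr7* stood at 13.8 and 9.41 CPM in the myoblast-enriched and 18.8, 4.18 and 9.92 CPM in the myotube-enriched libraries, and *Rn7sk* at 10.3 and 6.95 CPM and 8.22, 3.099 and 8.44 CPM (levels scaled separately).

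Genes with exons overlapped on the opposite strand were treated apart, because the counting is not stated to use strand. Of 4168 such genes tested, 495 (11.9%) rose and 1055 (25.3%) fell as counted, against 1641 (16.4%) and 1961 (19.6%) of 9999 genes without such an overlap. The share of falls followed the level of the partner. Where the partner on the other strand stood at or below the gene at 48 h, 19.6% of 2695 genes fell, and where it stood more than 16 times higher, 49.3% of 416 genes did, with medians of -0.032 and -1.05. At 10 CPM or more in 1 group, the largest rises among overlapped genes were *Neb*†, *Ttn*† and *Tceal7*†, which went from 1.08, 1.45 and 2.13 to 18.1, 21.1 and 18.4 CPM. The largest falls were *Gm9747*†, which lies opposite *Irs1*† and went from 40.6, 43.7 and 50.3 CPM to 0 in every 120 h library (at least 334-fold lower), the histone gene *Hist1h2ap*† (at least 832-fold lower) and *CT010467.1*†, annotated as ribosomal RNA, from 2377, 7864 and 5503 to 0.446, 0.453 and 0.0758 CPM. The same falls were present without dox, where *Gm9747*† went from 37.4, 37.4 and 42.05 CPM to 0 in each library, and in the strained dox libraries from 120 h it stood at 60.04 and 28.2 CPM (myoblast-enriched) and 27.9, 24.2 and 22.5 CPM (myotube-enriched). Whether whole cultures at 120 h were prepared in the same way, or counted with the same strand setting and annotation, as the other libraries was not tested.

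Of the 9999 genes without such an overlap, 814 (8.14%) rose and 638 (6.38%) fell in both fits. In the muscle lists the rises in both fits among them were 5 of 6 titin and M-band genes, 3 of 4 myosin heavy chains, 3 of 5 light chains and actins, 8 of 14 Z-disc genes, 4 of 8 energy enzymes, 5 of 11 coupling genes, 4 of 10 dystrophin complex genes, 3 of 9 neuromuscular junction genes, 2 of 12 thin filament genes, 2 of 12 myogenic regulators and 0 of 9 fusion genes. Outside them they included 3 of 13 integrins, 3 of 13 matricellular genes and 3 of 14 collagens. The falls in both fits included 5 of 12 myogenic regulators, 19 of 63 ribosomal protein genes, 4 of 14 chemokines and cytokines, 3 of 19 replication genes and 1 of 15 interferon-response genes, the last being near the share over all genes without overlap.

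The change from 48 to 120 h was then set against that of the same line without dox, by a test of the difference between both changes over 12 libraries. Of 14734 genes tested, 1058 (7.18%) changed by more than 2-fold higher with dox than without and 867 (5.88%) lower. In the corrected fit these were 1082 (7.36%) and 600 (4.08%) of 14698. The list with the largest median difference was mitosis, where the change was higher with dox for 24 of 24 genes in both fits, with a median difference of 2.45 (2.34 corrected) against -0.0075 (-0.027) for all genes. Without dox all 24 fell. *Mki67* went from 261, 266 and 254 CPM at 48 h to 67.1, 81.2 and 76.7 CPM at 120 h without dox, and from 83.95, 69.4 and 63.1 to 179, 148 and 142 CPM with dox, a difference of 2.97 on the log2 scale (SE 0.1599, edgeR adjusted p = 3.09e-08, corrected 2.66). At 48 h all dox libraries stood below all libraries without dox, and at 120 h all stood above. *Ccnb1*, cyclin B1, went from 79.97, 82.4 and 83.9 to 13.8, 17.7 and 17.4 CPM without dox and from 20.9, 21.2 and 20.1 to 29.1, 24.6 and 24.7 CPM with dox (difference 2.72, corrected 2.496). For DNA replication, 14 of 24 genes had a higher change with dox as counted and 17 after correction.

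ATF4 targets differed in the other direction. Without dox 9 of 18 rose, and the change was lower with dox for 12 of 18 as counted and 12 after correction (median difference -1.75 and -1.41). *Trib3*, a pseudokinase induced by stress, went from 40.8, 51.2 and 37.2 to 198, 141 and 102 CPM without dox and from 6.84, 8.82 and 8.401 to 3.23, 5.73 and 4.21 CPM with dox, a difference of -2.58 (SE 0.333, edgeR adjusted p = 5.21e-05, corrected -2.104). *Asns*, asparagine synthetase, went from 207, 257 and 191 to 519, 595 and 646 CPM without dox and from 64.03, 73.5 and 66.6 to 89.1, 84.3 and 96.8 CPM with dox (-0.97, not called, and -1.04 corrected, called). Genes of cholesterol and fatty acid synthesis had a higher change with dox for 10 of 23 as counted and 12 after correction, none lower. *Idi1* went from 238, 242 and 271 to 138, 149.9 and 149 CPM without dox (2.53, corrected 2.22). Muscle energy enzymes had a higher change with dox for 9 of 19 as counted and 11 after correction. It was lower for 2 of them as counted, *Cox6a2*† (-1.65, corrected -1.41) and *Cox8b*, another cytochrome oxidase subunit of muscle (-1.36, corrected -0.84), and for 1, *Cox6a2*†, after correction. Hypoxia and glycolysis genes had a higher change for 7 and 9 of 23, and a lower one for 1 in both fits, *Vegfa*, the endothelial growth factor (-1.19, corrected -1.19). *Ldha*, lactate dehydrogenase A, went from 1512, 1629.5 and 1712 to 525, 519.8 and 441 CPM without dox and stood at 744, 876 and 852 CPM at 48 h and 641, 745 and 702 CPM at 120 h with dox (1.52, corrected 1.58). In the other direction, *Ankrd1* rose from 446, 468 and 429 to 2035, 1924 and 2082 CPM without dox, a difference of -1.73 (corrected -1.85), and *Myog*, at 1579, 1566 and 1592 CPM at 48 h and 2693, 2120.4 and 1830.0 CPM at 120 h without dox, differed by -1.09 (SE 0.1704, corrected -0.82 and without no-dox 120 h replicate 1 -0.93, both short of the fold threshold).

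**Figure D5:**
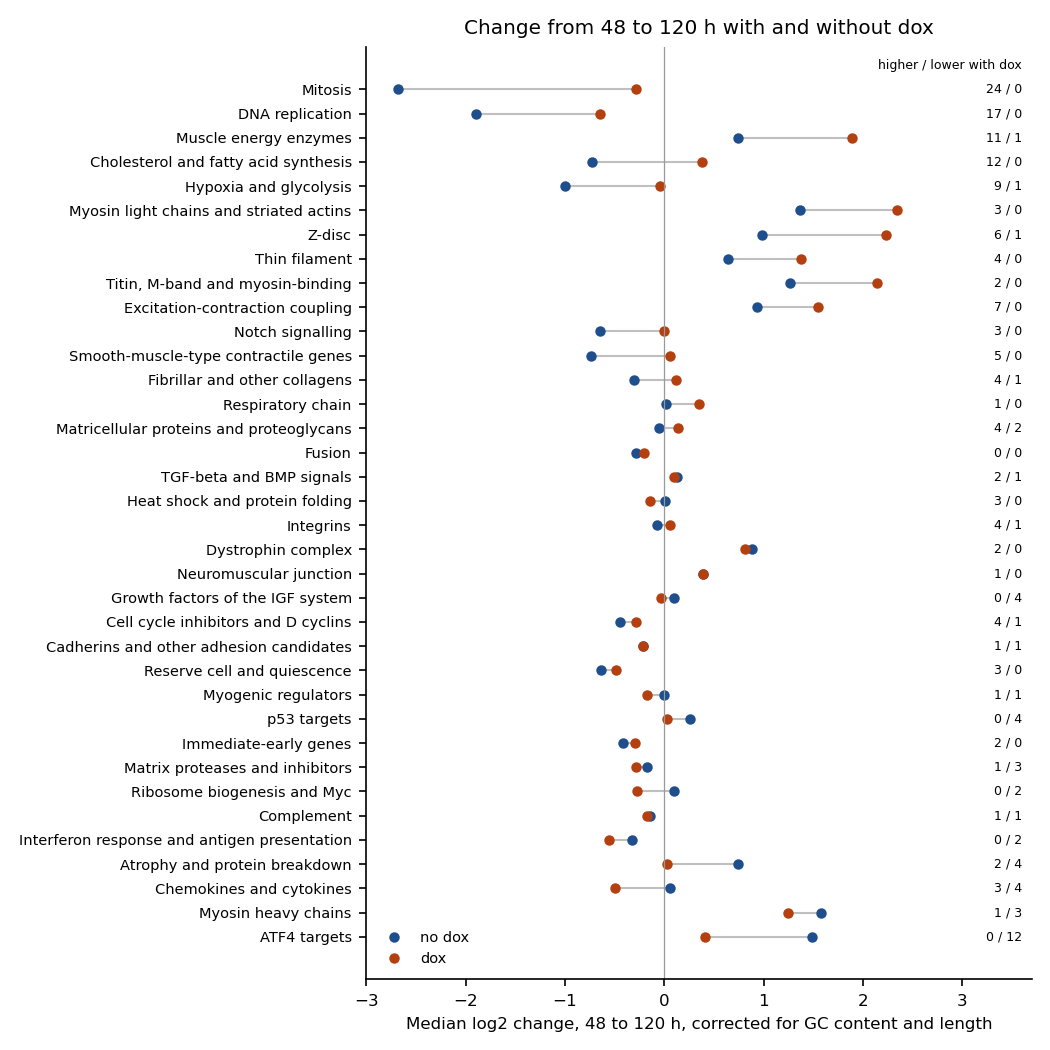
Median log2 change from 48 to 120 h of each gene list without dox (blue) and with dox (red), both after correction for GC content and length, ordered by the median difference. The figures at the right are the members whose change was called higher or lower with dox by the test of the difference. Mitosis (24 higher, 0 lower) and ATF4 targets (0 higher, 12 lower) stand at the ends.

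In the strained cultures with dox, no gene passed the threshold between the myotube-enriched and the myoblast-enriched fraction by edgeR or by DESeq2. Among 14291 tested, 125 genes were higher and 58 lower at an unadjusted p under 0.05 in edgeR and 371 and 75 in DESeq2. With the replicate number as a block in edgeR these were 134 and 233, so the split between directions turned round, and again no gene passed. The myotube-enriched libraries differed widely from each other. *Myh3* stood at 2108, 3484 and 752 CPM in them and at 638 and 733 CPM in the myoblast-enriched libraries, *Ttn*† at 1163, 2730.5 and 355 CPM (myotube-enriched) and 266 and 276 CPM (myoblast-enriched), *Mki67* at 51.3, 34.1 and 90.9 CPM (myotube-enriched) and 68.4 and 168 CPM (myoblast-enriched), and *Mymk* at 971, 1059.5 and 396 CPM (myotube-enriched) and 437 and 430.3 CPM (myoblast-enriched), all scaled separately from the whole cultures. Put in place of the whole cultures at 120 h, the 5 strained libraries gave 2 genes higher and 1 lower than at 48 h by edgeR, with 714 and 344 at an unadjusted p under 0.05. These counts were 73 and 33 without myotube-enriched replicate 1, 8 and 1 without replicate 2 of that fraction, and 0 and 0 when any other of the 8 libraries was left out. Their median log2 differences from 48 h were 1.33 for titin and M-band genes, 1.302 for Z-disc genes and 1.903 for myosin heavy chains, against 0.027 over all genes. Myotube-enriched replicate 2 carried much of these values, and without it the medians were 0.62, 0.49 and 0.61. Of the 36 lists, 15 had a median of the opposite sign to that in whole cultures, 13 of them lower there and higher here (13 to 15 of 36 when 1 library was left out). ATF4 targets stood at 0.84, chemokines and cytokines at 0.84, immediate-early genes at 0.61 and complement genes at 0.57, where whole cultures had -0.65, -0.89, -0.66 and -0.33. Without myotube-enriched replicate 2 the median of ATF4 targets was -0.063, chemokines and cytokines stood at 0.73, immediate-early genes at 0.66 and complement genes at 0.56 (0.37 without replicate 3 of that fraction). The same 48 h libraries serve both comparisons. Of 204 genes picked by the naming rule and tested in both, 57 had the opposite sign with the strained libraries, none of them past the threshold there. Of the 38 of these called lower in whole cultures in both fits, 26 had a negative sign in the strained libraries and 12 a positive one. Among the 26, *Mcm5* stood at -1.10, but others lay near 0, such as *Vim* (-0.057), *Cxcl5* (-0.13) and *Igfbp6* (-0.16). Among the 12, *Dcn* stood at 1.61, *Car9*† at 1.56, *Junb*† at 0.72, *Fbln1* at 0.55 and *Id3* at 0.303 against 48 h, and at 1.51, 1.44, 0.76, 0.64 and 0.498 without myotube-enriched replicate 2. *Myh6* at 1.54 and *Gdf15* at 1.78 rested on that library, without which they stood at 0.28 and 0.21. *Dcn* and *Car9*† were called higher without myotube-enriched replicate 1. By the study's methods, straining a culture gives both fractions, so strained libraries may share a culture. These fits against 48 h took each strained library as a separate replicate, so their calls may rest on fewer cultures than libraries.

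The markers of skeletal muscle were present. *Des*†, *Myog*, *Myh3*, *Acta1*, *Ckm*†, *Tnnt3*, *Mymk* and *Myod1* were all tested, and the lowest value of any in a whole-culture dox library was 77.4 CPM, for *Myod1*. With dox none of the 5 adipocyte, 4 endothelial and 4 osteoblast markers passed the filter on low counts. Without dox 1 osteoblast marker did, *Bglap*, osteocalcin, which shares most of its sequence with *Bglap2*. It had no count in the 48 h libraries without dox and stood at 0.661, 0.601 and 0.545 CPM at 120 h, at least 3.74-fold higher by the limit that 3 counts per library allow, and was called in the test of the difference with and without dox in both fits. Of the leukocyte markers 2 of 4 passed it with dox, *Cd68* and *Csf1r*†, both lower at 120 h as counted (-1.28 and -4.52, corrected -0.54 and -4.52). The call of *Cd68* was lost without 120 h replicate 1 (-0.995) or 3 (-1.02) and without any 1 of the 48 h libraries (-1.26 to -1.32), and it stood at -2.03 without 120 h replicate 2, while *Csf1r*† stood at 1.48, 2.29 and 3.02 CPM at 48 h. Of the neuronal markers 2 of 4 did, and neither was called. All 4 smooth muscle markers were tested. *Myh11*, smooth muscle myosin, rose in both fits from 0.234, 0.116 and 0 to 1.15, 0.989 and 1.29 CPM (3.11, SE 0.574, edgeR adjusted p = 0.00025, corrected 2.69), and *Smtn*†, smoothelin, fell as counted from 127, 121 and 117 to 36.8, 54.03 and 50.4 CPM (-1.33) and stood at 0.21 after correction. *Acta2*, the smooth muscle actin that myoblasts also express, stood at 2085, 2283 and 2222 CPM at 48 h and 1503, 1723 and 1796 CPM at 120 h and, like the remaining marker, was not called (-0.35, corrected -0.27).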

How the data were processed

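Per the labels, poly(A)-selected RNA of C2C12 lines was sequenced and processed against mm10. The deposited tables hold estimated counts per transcript, which the authors made with Salmon and did not normalize. Transcripts were summed per gene and rounded. Annotation came from GENCODE vM21 (GRCm38), which held 98.72% of the 109617 transcripts (45706 genes), the annotation used by the authors not being given in the sources used here. The gene members, lists and comparisons were chosen with earlier results of these data known. Genes passed edgeR's filter on low counts, were scaled by TMM and tested with edgeR 4.0.16 (quasi-likelihood test, Benjamini-Hochberg adjustment, R 4.3.3) at an adjusted p under 0.05 and a change over 2-fold. The SE is the log2 change divided by the root of F. The difference with and without dox was an interaction term over 12 libraries. After the data were seen, natural splines (5 degrees of freedom) of GC content and log2 length, fitted per library, were added as offsets. DESeq2 1.42.0 was an alternative, as were other scalings and filters and leaving out each library. The script was tested on simulated data.

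Named genes were the 10 largest calls in each direction at 10 CPM or more without opposite-strand overlap, 5 per direction for the interaction, 3 per direction among overlapped genes, candidates of the study, and in each of the 36 lists its anchors, highest level and largest rise and fall. *Irs1*†, *Cd68*, *Csf1r*†, *Bglap*, *Smtn*† and *Cox8b* were named after their values were seen. Replicates of a group differed by more than sampling noise (chi-square per gene 6.871 to 377.455 over 16 pairs). A fold against libraries at or under 3 counts is a lower bound set at 3 counts per library, which covers counting error only. Levels of strained libraries were scaled separately from the other 12. The values of a single listed gene are not reported here.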

Additional observations from a re-analysis of the deposited data

Results flagged for a closer look

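The change from 48 to 120 h differed between cultures with and without dox, by the interaction term of edgeR over 12 libraries. Of 14734 genes tested, 1058 (7.18%) differed in the higher and 867 (5.88%) in the lower direction. By list, the change was higher with dox for 24 of 24 mitosis, 14 of 24 DNA replication and 10 of 23 cholesterol and fatty acid synthesis genes. It was lower for 12 of 18 ATF4 targets.

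Single genes at 10 CPM or more without overlap on the opposite strand were set apart by the size of that difference. *Mss51*, a muscle-specific gene, had the largest in the higher direction, 5.12 on the log2 scale (corrected 4.97). It went from 5.27, 5.31 and 4.92 to 17.6, 18.3 and 24.9 CPM with dox and from 15.1, 14.2 and 14.4 to 1.79, 1.503 and 1.82 CPM without. *Vdac3-ps1*, a pseudogene whose reads may belong to its parent, differed by 4.22, *Rnf128*, a ubiquitin ligase, by 4.15, *Padi3* by 3.92 and *Brip1*, a DNA repair helicase, by 3.49. In the lower direction *Car6*, a secreted carbonic anhydrase, differed by -6.06, with 0.211, 0.136 and 0.325 CPM at 48 h and 0.335, 0.824 and 0.834 CPM at 120 h with dox against 0.111, 0.151 and 0.296 CPM and 38.8, 41.3 and 54.5 CPM without. *Cdsn* differed by -5.65, *Bglap2* by -4.12 and *Slc7a11* by -3.895. *Gdf15* had a fitted difference of -5.12, which depends on the prior count, because its 120 h dox libraries held at most 3 counts each. With those libraries set at 3 counts, its ratio of 120 h to 48 h was at least 15.2-fold lower with dox than without. These 10 differences kept their direction and their call after correction, and their cause was not tested.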

How the results depend on the processing

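With dox, RLE and upper-quartile normalization, DESeq2, a stricter filter, no filter on low counts, a fit of all 12 libraries and leaving out overlapped genes kept the counts of genes called within 1.5 times of 2136 higher and 3016 lower. The counts were 4943 and 5464 with no fold threshold, 1428 and 1329 with the correction for GC content and length, and 2 and 1 with the strained 120 h libraries in place of whole cultures (6 and 6 with the correction). The split of calls moved from 41.5% to 51.8% higher with the correction. Leaving out 1 library gave 2009 to 2304 higher and 2937 to 3279 lower, and for the difference with and without dox 945 to 1125 and 650 to 1141. Between fractions it gave 0 to 0 in both directions. For the strained libraries against 48 h, it gave 0 to 73 higher and 0 to 33 lower.

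With the replicate block, 2099 rose and 3022 fell with dox, and 1010 and 797 changed for the difference with and without dox. With correction and replicate block together, 1392 rose and 1328 fell. Libraries with the same number at 48 and 120 h correlated in their deviations from the group means with r = 0.226, -0.009 and 0.083. Each 48 h library did not in every case correlate best with its own number, though replicate 1 did. Deviations from means of 3 libraries can neither show nor exclude a pairing.

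Of 146 genes named with values and tested with the strained libraries, 84 kept their sign there but lost their call. Sign and status, called or not, were kept by 22. Of the genes named with values, some changed sign on the log2 scale. With the correction these were Myog 0.17, Acta1 0.74, Ckm 1.89, Obsl1 0.4002, Cryab 0.51, Jsrp1 0.302, Chrna1 -0.025, Aldoa 0.76, Mki67 -0.26, Top2a -0.27, Cadm4 0.28, Itga7 0.057, Des 0.57, Trib3 0.46, Ldha 0.21, Smtn 0.21, Brip1 -0.62, Cdsn 0.24 and Cox8b 0.34, and with the replicate block added Myog 0.17, Acta1 0.73, Ckm 1.89, Obsl1 0.401, Cryab 0.51, Jsrp1 0.31, Chrna1 -0.022, Aldoa 0.76, Mki67 -0.26, Top2a -0.27, Cadm4 0.28, Itga7 0.057, Des 0.57, Trib3 0.46, Ldha 0.21, Smtn 0.21, Brip1 -0.64, Cdsn 0.23 and Cox8b 0.34. With the strained libraries in place of whole cultures they were Myog 0.3000, Id3 0.303, Mymx 0.16, Acta1 0.64, Ckm 0.47, Myh7 1.79, Myh6 1.54, Actc1 -0.091, Tpm3 0.23, Obsl1 0.28, Cryab 0.45, Jsrp1 0.73, Chrng 0.86, Aldoa 0.45, Cox6a2 1.48, Cdh23 0.0045, Mcam -0.62, Itga7 0.38, Dcn 1.61, Fbln1 0.55, Col3a1 0.57, Des 0.62, B2m 0.28, Junb 0.72, Gdf15 1.78, Car9 1.56, Hspa1b 0.13, Gm26917 0.11, Gm47283 0.0023, Irs1 -0.17, Trib3 1.73, Ldha 0.25, Cd68 0.503, Csf1r 0.504, Smtn 0.26, Brip1 -0.16, Cdsn 2.17, Cox8b 0.32, Vdac3-ps1 -0.16 and Vegfa 0.62, and with the correction as well Myod1 0.039, Myog 0.38, Id3 0.36, Mymx 0.26, Acta1 0.699, Ckm 0.67, Myh7 1.797, Myh6 1.57, Actc1 -0.064, Tpm3 0.22, Obsl1 0.46, Cryab 0.51, Jsrp1 0.897, Chrng 0.88, Aldoa 0.54, Cox6a2 1.63, Ccnb1 -0.0303, Top2a -0.047, Mcam -0.59, Itga7 0.44, Dcn 1.53, Fbln1 0.61, Col3a1 0.52, Des 0.68, B2m 0.24, Junb 0.97, Gdf15 2.18, Car9 1.596, Hspa1b 0.24, Fbxo32 -0.034, Gm26917 0.38, Gm47283 0.052, Fndc10 0.12, Irs1 -0.34, Trib3 1.92, Ldha 0.27, Cd68 0.59, Csf1r 0.55, Smtn 0.39, Brip1 -0.34, Cdsn 2.31, Cox8b 0.48, Vdac3-ps1 -0.043 and Vegfa 0.597. Igfbp5, near 0, stood at 0.0002 with RLE normalization and with DESeq2 and at 0.0102 in the fit of 12 libraries. Leaving out 1 library, values on both sides of 0 ran from -0.16 to 0.053 for Des, from -0.0902 to 0.079 for Igfbp5, from -0.045 to 0.17 for Mb, from -0.018 to 0.14 for Sgca. The cause was not tested.

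Calls with dox that were lost or gained without 1 library were Csrp3 (without 120 h replicate 3, 0.997), Dag1 (without 120 h replicate 1, 1.01), Dag1 (without 48 h replicate 1, 1.07), Fst (without 120 h replicate 1, 0.96), Trib3 (without 120 h replicate 2, -1.07), Cd68 (without 120 h replicate 1, -0.995), Cd68 (without 120 h replicate 3, -1.02), Cd68 (without 48 h replicate 1, -1.29), Cd68 (without 48 h replicate 2, -1.32), Cd68 (without 48 h replicate 3, -1.26), Cox8b (without 120 h replicate 1, -0.96), and for the difference with and without dox Asns (without no-dox 120 h replicate 1, -1.06), Asns (without dox 120 h replicate 3, -1.04), Asns (without no-dox 48 h replicate 2, -1.104), Asns (without dox 48 h replicate 1, -1.03), Myog (without no-dox 120 h replicate 1, -0.93). The depth of 18337845 to 50950674 counts per library limits genes under about 1 CPM, where a library holds few counts.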
